A study of Mus musculus with 12 samples.

Results

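The genes described here encode the collagens and the main proteins of the basement membrane. They are the genes named Col with a type and a chain number, the laminin chains Lama, Lamb and Lamc, the nidogens Nid1 and Nid2, and the proteoglycans Hspg2 and Agrn. There were 47 of them among the 14179 genes in the 3 deposited tables, and 43 were in all 3 tables, which share 13518 genes. Col10a1, Col11a1, Col24a1 and Lama1 were listed in the 2-week table only. The series compared RNA of alveolar epithelial cells from C57BL/6 mice aged 8 to 10 weeks, with no transgene or mutant allele named in the labels. All mice received a substance into the trachea: saline, LPS (bacterial lipopolysaccharide, 2 mg/kg, lungs taken after 1 day), or bleomycin (a lung-injuring drug, 1.5 U/kg) with lungs taken after 2 or after 4 weeks. Each of the 4 groups had 3 libraries. In every group the cells came from digested lungs after red cell lysis and removal with antibody-coated beads of cells bearing CD45 or CD16/32 (blood cells), CD31 (endothelium), PDGFRα or CD90 (fibroblasts) or Ter119 (red cells), and the EpCAM-bound cells were kept. Nothing in the labels ties the libraries within a group to different mice, so p-values measure only the spread between these libraries, which may be technical.

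Collagens are secreted helical proteins. The fibrillar types I, III and V, made mostly by fibroblasts in lung, build the tension-bearing fibres of the interstitium, and their build-up is the hallmark of scarring after bleomycin. Basement membranes are thin sheets under epithelium and around capillaries, in which a type IV collagen network and a laminin network are bridged by nidogens and perlecan. In the alveolus the epithelial and capillary basement membranes are fused over much of the gas exchange surface, so both epithelium and endothelium face the same sheet.

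Values are FPKM, read fragments scaled by transcript length and library total, so levels of different genes can be set side by side. In the libraries used for tests Epcam, the surface protein of the selection, stood between 20.7 and 46.2 FPKM, and Sftpc, the surfactant protein of type 2 alveolar cells, was between 8895 and 14144 FPKM in saline and in both 4-week libraries and between 1773 and 4507 FPKM after LPS and at 2 weeks. Pdgfra, whose protein was a target of the depletion, was still at 31.1 to 62.9 FPKM in saline, at 2 weeks and in these 4-week libraries and at 26.1 to 52.1 FPKM after LPS. Thy1, which encodes the depleted CD90, was at 8.78 to 16.0 FPKM in saline, 28.7 to 36.0 FPKM at 2 weeks and 18.2 to 29.4 FPKM after LPS, above every saline library in both. Pecam1, which encodes CD31, was at 34.1 to 81.4 FPKM over the same 11 libraries. In bulk RNA of this kind, fewer cells of a type and less RNA per cell cannot be told apart. Library 2 of the 4-week group stood apart: 45.4% of genes were listed at 0 against up to 0.577% in any other library, Epcam was listed at 0, and 11 of the 43 genes in all tables were listed at 0 against none in the other libraries. Its values are given apart and it is left out of the tests unless it is named. The remaining 4-week column has a number found in none of the titles, so that library is referred to as unnumbered.

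Most of these genes were higher 2 weeks after bleomycin and most were lower 1 day after LPS, in comparisons that share the saline libraries. At 2 weeks 31 of the 44 genes tested were higher and 1, Col17a1, was lower than in saline, where 18% of all genes tested were higher and 11.8% lower, 29.8% in either direction. After LPS 26 of 41 were lower and none was higher, where 25.9% of all genes tested were lower and 14.2% higher, 40.2% in either direction; at an unadjusted p under 0.05 no member was higher either, and by the q-values in the authors' deposited table there were 11 lower and none higher. At 4 weeks, with library 2 left out, 6 of 42 were higher and none lower, against 0.992% of all genes higher, 0.643% lower and 1.63% in either direction, and at an unadjusted p under 0.05 there were 20 higher and 1 lower. These calls are from limma on log2(FPKM + 1) with a Benjamini-Hochberg adjusted p under 0.05 over all genes tested, and a gene was tested where enough libraries, as many as the smaller group has, reached 1 FPKM. The median log2 fold change of the genes tested was 0.83 at 2 weeks, where that of all genes was 0.05. It was -0.96 after LPS, where that of all genes was -0.22, and 0.44 at 4 weeks, where that of all genes was -0.10.

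The count at 2 weeks holds genes that could only have been called higher. Col7a1, Col24a1 and Lama1 reached 1 FPKM in no saline library and were tested because of the 2-week libraries, and without them 28 of 41 were higher. Col17a1, the 1 gene called lower there, was under 1 FPKM in 2-week libraries 2 and 3, so saline carried it past the filter. Col17a1 reached 1 FPKM in no LPS library and was tested after LPS through saline alone, and without it 25 of 40 were lower. Those 25 still include Col4a3, Col4a4, Col4a5, Col4a6, Col12a1, Col27a1, Col28a1, Lama3, Lamc3 and Nid2. Each was under 1 FPKM in some LPS libraries, so the saline libraries carried it past the filter. At 4 weeks Col7a1 was tested through the 4-week libraries alone, and without it 6 of 41 were higher. It is among the genes higher there at an unadjusted p under 0.05 by limma. Col10a1, Col11a1 and Col20a1 did not pass the filter at 2 weeks, Col7a1 and Col20a1 did not pass it after LPS, and Col20a1 did not pass it at 4 weeks. Col20a1 lay between 0.118 and 0.812 FPKM over the 11 libraries. Col11a1 was at no more than 0.0188 FPKM in saline and at 0.285, 0.647 and 0.590 FPKM at 2 weeks, and Col10a1 was listed at 0 in all 3 saline libraries and at 0.719, 1.30 and 1.73 FPKM at 2 weeks.

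**Figure D1:**
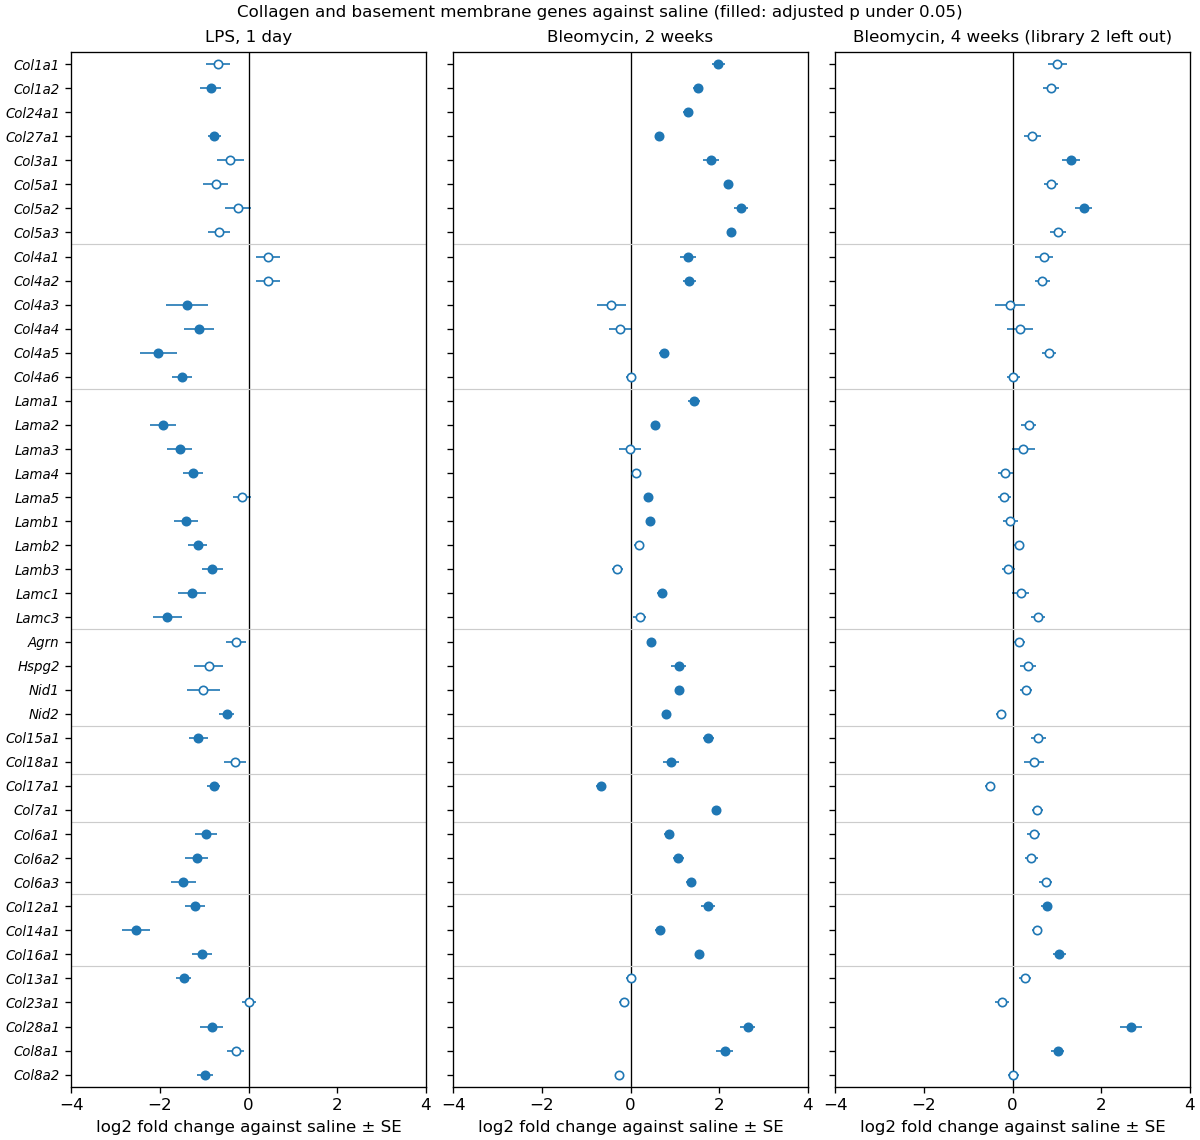
Log2 fold change against saline with its standard error for the genes tested, all but 1 of which are shown, in rows grouped from the top as fibrillar collagens, type IV collagens, laminins, the nidogens with Hspg2 and Agrn, multiplexins, anchoring collagens, collagen VI, collagens attached to fibrils, and other collagens. Filled points passed an adjusted p of 0.05: 26 in the LPS panel, 32 in the 2-week panel and 6 in the 4-week panel, which leaves out library 2.

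The fibrillar collagens had the highest median log2 fold change of all classes at 2 weeks, 1.90, and all 8 that were tested were higher. Col1a1 and Col1a2 encode the chains of type I collagen, the main fibre protein of scar. Col1a1 stood at 119.6, 144 and 181 FPKM in saline, 119, 100.3 and 60.5 FPKM after LPS, 619.7, 545 and 571 FPKM at 2 weeks and 344 and 252 FPKM at 4 weeks. Col1a2 stood at 105, 117 and 139.9 FPKM in saline, 90.7, 61.0 and 51.7 FPKM after LPS, 375, 324 and 343 FPKM at 2 weeks and 243 and 198 FPKM at 4 weeks. For both genes every 2-week library lay above every saline library, every 4-week library lay between the saline and the 2-week values, and every LPS library lay below every saline library, by a margin of about 1 FPKM for Col1a1. The log2 fold change at 2 weeks was 1.98 ± 0.15 (SE, adjusted p = 0.000246) for Col1a1 and 1.52 ± 0.12 (SE, adjusted p = 0.000276) for Col1a2. After LPS it was -0.70 ± 0.27 (SE, adjusted p = 0.0695) for Col1a1, which missed the threshold, and -0.85 ± 0.23 (SE, adjusted p = 0.0198) for Col1a2, which passed it. Col1a1 after LPS passed the threshold under 4 of the other settings, among them without LPS library 1 (adjusted p = 0.0298), and Col1a2 lost its call under 5.

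Col3a1 encodes type III collagen, which forms mixed fibres with type I. It stood at 132, 151 and 207 FPKM in saline, 188, 108 and 84.6 FPKM after LPS, 670.0, 484 and 566 FPKM at 2 weeks and 414 and 393 FPKM at 4 weeks, and rose at 2 weeks by a log2 fold change of 1.82 ± 0.19 (SE, adjusted p = 0.000671). Its gene (chr1:45311538-45349706, plus strand) lies next to Col5a2 (chr1:45374321-45503282, minus strand). Type V collagen chains, encoded by Col5a1, Col5a2 and Col5a3, start and limit the width of type I fibres. Col5a1 stood at 19.3, 19.5 and 24.4 FPKM in saline, 18.8, 12.3 and 7.49 FPKM after LPS, 98.5, 104 and 98.9 FPKM at 2 weeks and 43.8 and 34.6 FPKM at 4 weeks. Col5a2 stood at 18.5, 20.9 and 29.3 FPKM in saline, 29.7, 16.8 and 13.2 FPKM after LPS, 127, 138 and 127 FPKM at 2 weeks and 70.7 and 69.8 FPKM at 4 weeks. Col5a3 stood at 3.73, 3.37 and 4.43 FPKM in saline, 2.98, 2.39 and 1.05 FPKM after LPS, 20.3, 23.8 and 23.2 FPKM at 2 weeks and 10.5 and 7.43 FPKM at 4 weeks. For these 3 genes the 2-week libraries lay above all others and the 4-week libraries above all saline and LPS libraries. The group mean rose from 21.1 ± 2.88 to 101 ± 3.21 FPKM for Col5a1 (SD, n = 3 in each), a log2 fold change of 2.21 ± 0.10 (SE, adjusted p = 5.07e-05). The log2 fold change was 2.49 ± 0.16 (SE, adjusted p = 0.000151) for Col5a2, the largest among the fibrillar genes, and 2.28 ± 0.11 (SE, adjusted p = 5.41e-05) for Col5a3. After LPS the libraries of Col3a1 and Col5a2 overlapped with saline, with log2 fold changes of -0.42 ± 0.30 (SE, adjusted p = 0.290) and -0.24 ± 0.29 (SE, adjusted p = 0.523). All 3 LPS libraries lay below saline for Col5a1 and Col5a3, at -0.74 ± 0.29 (SE, adjusted p = 0.0659) and -0.67 ± 0.25 (SE, adjusted p = 0.0603), and neither passed the threshold, though both did under several other settings.

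Fibrillar collagens at low levels moved as well. Col27a1, a collagen of cartilage matrix, rose from 2.30, 2.63 and 2.42 FPKM in saline to 4.06, 4.55 and 4.56 FPKM at 2 weeks, and fell to 1.17, 0.984 and 0.912 FPKM after LPS. At 4 weeks it was at 4.89 and 2.77 FPKM. Its log2 fold changes were 0.64 ± 0.090 (SE, adjusted p = 0.00231) and -0.77 ± 0.14 (SE, adjusted p = 0.00373), and it was the single fibrillar gene whose LPS call held under every alternative. Col24a1, a collagen known from developing bone, was at no more than 0.0806 FPKM in saline and at 1.34, 1.68 and 1.65 FPKM at 2 weeks.

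At 4 weeks 2 of the 7 fibrillar genes tested passed the threshold. The log2 fold change was 1.60 ± 0.20 (SE, adjusted p = 0.0186) for Col5a2 and 1.33 ± 0.20 (SE, adjusted p = 0.0355) for Col3a1. Col5a3 was at 1.03 ± 0.18 (SE, adjusted p = 0.0504), Col1a1 at 1.01 ± 0.22 (SE, adjusted p = 0.0786), Col1a2 at 0.87 ± 0.17 (SE, adjusted p = 0.0648), Col5a1 at 0.86 ± 0.16 (SE, adjusted p = 0.0592) and Col27a1 at 0.45 ± 0.20 (SE, adjusted p = 0.257). For all 7 genes both 4-week libraries lay above every saline library. Library 2 went against the other 4-week libraries: it held Col1a1 at 202 FPKM and Col1a2 at 71.6 FPKM but Col3a1 at 2.82 FPKM and Col5a2 at 0.519 FPKM. With it in the fit the log2 fold changes of Col3a1 and Col5a2 were -0.92 and -0.25, and no member was called. Without 4-week library 1 none of the members was called at 4 weeks, and without saline library 1, 2 or 3 the count of members was 2, 1 or 3.

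**Figure D2:**
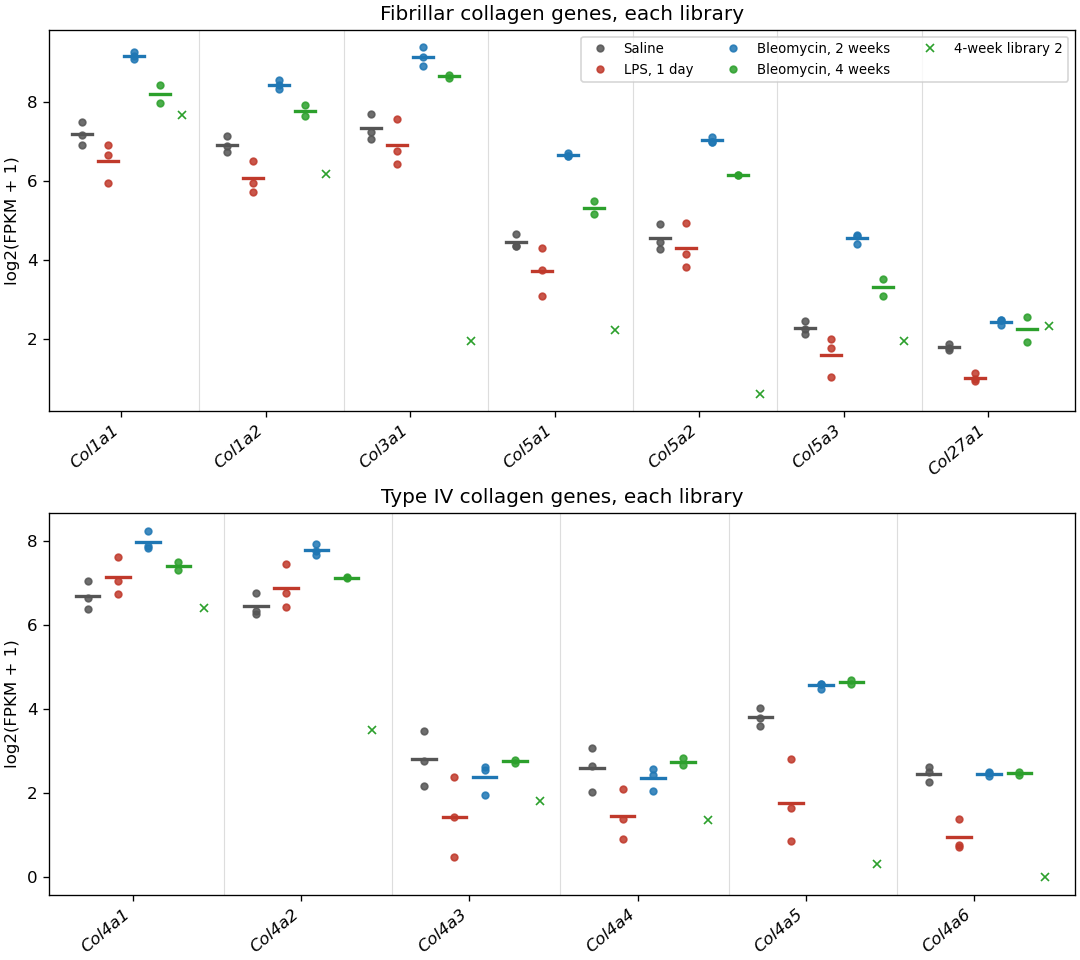
Log2(FPKM + 1) of the 7 fibrillar and the 6 type IV collagen genes of all tables in each library (points) with the group mean (bars); crosses are 4-week library 2, which is not in the mean. The 2-week points of the fibrillar genes lie above all saline points, while among the type IV genes this holds for Col4a1, Col4a2 and Col4a5 and not for Col4a3, Col4a4 and Col4a6.

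Among the 6 genes of type IV collagen, the network former of basement membranes, 3 were higher at 2 weeks and 4 were lower after LPS. Its genes lie in head-to-head pairs, each pair read outwards from a shared stretch of DNA. The chains of Col4a1 and Col4a2 make the network found in nearly all basement membranes, those of Col4a3, Col4a4 and Col4a5 the network of glomerular and alveolar basement membranes, and those of Col4a5 and Col4a6 a network found in smooth muscle and some epithelia. In mm10 coordinates of the files, Col4a1 (chr8:11198423-11312826, minus strand) and Col4a2 (chr8:11312805-11449287, plus strand) overlap by 22 bases. Col4a4 (chr1:82448423-82586849, minus strand) ends 71 bases before Col4a3 (chr1:82586921-82722059, plus strand), and Col4a6 (chrX:141165403-141474076, minus strand) ends 1308 bases before Col4a5 (chrX:141475385-141689234, plus strand). The strand setting of the counting is not stated in the sources used, so reads in the 22 shared bases cannot be told apart.

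The promoter windows show how closely the partners of a pair share their start regions. They are from RefSeq, build GRCm38.p6, reach from 250 bases before to 50 bases after the transcription start, and are written on the gene's own strand. The windows of Col4a1 (chr8:11312777-11313076) and Col4a2 (chr8:11312555-11312854) share 78 bases, in capitals. In the window of Col4a4 (chr1:82586800-82587099) the 179 capitals lie inside Col4a3 as the files place it. The windows of Col4a5 (chrX:141475169-141475468) and Col4a6 (chrX:141474027-141474326) share no base and hold no capitals.
Col4a1: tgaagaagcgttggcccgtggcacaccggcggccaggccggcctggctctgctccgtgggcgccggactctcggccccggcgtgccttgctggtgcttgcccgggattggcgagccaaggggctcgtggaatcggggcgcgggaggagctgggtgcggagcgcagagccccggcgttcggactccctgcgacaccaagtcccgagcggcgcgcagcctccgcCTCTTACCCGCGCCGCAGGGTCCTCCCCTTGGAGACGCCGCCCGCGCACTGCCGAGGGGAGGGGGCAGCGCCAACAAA
Col4a2: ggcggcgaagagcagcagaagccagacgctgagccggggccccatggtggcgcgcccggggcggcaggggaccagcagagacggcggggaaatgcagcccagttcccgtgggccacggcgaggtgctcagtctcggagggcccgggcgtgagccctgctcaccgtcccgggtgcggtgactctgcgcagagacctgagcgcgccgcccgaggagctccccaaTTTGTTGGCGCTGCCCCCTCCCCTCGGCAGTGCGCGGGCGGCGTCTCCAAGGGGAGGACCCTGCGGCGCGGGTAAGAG
Col4a4: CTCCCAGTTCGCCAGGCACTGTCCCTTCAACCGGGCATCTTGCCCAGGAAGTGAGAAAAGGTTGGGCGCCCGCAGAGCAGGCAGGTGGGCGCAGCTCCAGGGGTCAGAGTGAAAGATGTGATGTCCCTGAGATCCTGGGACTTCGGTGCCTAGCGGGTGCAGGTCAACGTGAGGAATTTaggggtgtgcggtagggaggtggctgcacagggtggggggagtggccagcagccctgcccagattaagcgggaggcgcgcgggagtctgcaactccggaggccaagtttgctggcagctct
Col4a5: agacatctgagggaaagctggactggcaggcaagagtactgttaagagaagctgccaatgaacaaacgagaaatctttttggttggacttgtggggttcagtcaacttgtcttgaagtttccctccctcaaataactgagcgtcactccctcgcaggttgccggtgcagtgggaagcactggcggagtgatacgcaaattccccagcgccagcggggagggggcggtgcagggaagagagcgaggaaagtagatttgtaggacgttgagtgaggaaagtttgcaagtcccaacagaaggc
Col4a6: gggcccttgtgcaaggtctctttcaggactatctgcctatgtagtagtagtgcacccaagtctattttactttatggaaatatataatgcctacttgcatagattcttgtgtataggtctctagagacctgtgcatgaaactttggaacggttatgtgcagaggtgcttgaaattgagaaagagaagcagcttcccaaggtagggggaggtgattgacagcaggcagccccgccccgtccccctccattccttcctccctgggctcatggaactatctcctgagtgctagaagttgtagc
Of the 47 genes, 35 had a window in the RefSeq table. Col4a3 had none, so whether its window would overlap that of Col4a4 is not shown. The 3 motifs searched on both strands were the GC box GGGCGG, the CCAAT box CCAAT and the TATA box TATAAA; no match overlapped a match of another motif in these 5 windows. A GC box was in 4 of the 5 windows, all but that of Col4a4, and in 35.9% of all 27025 windows. CCAAT was in the windows of Col4a1, Col4a2 and Col4a5 and in 37.9% of all windows. In the stretch shared by Col4a1 and Col4a2 the 1 whole match was a GC box. TATAAA was in none of the 5 and in 14.2% of all windows. A match here describes letters and is no evidence of a bound factor.

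Col4a1 and Col4a2 were the most abundant of the pairs, and both rose at 2 weeks. Col4a1 stood at 98.6, 82.3 and 132 FPKM in saline, 196, 106 and 130.3 FPKM after LPS, 302, 227 and 233 FPKM at 2 weeks and 158 and 179 FPKM at 4 weeks. Col4a2 stood at 79.6, 75.6 and 107 FPKM in saline, 175, 85.8 and 108 FPKM after LPS, 242, 201 and 215 FPKM at 2 weeks and 139.8 and 137 FPKM at 4 weeks. Every 2-week and 4-week library lay above every saline library for both genes. The log2 fold change at 2 weeks was 1.29 ± 0.19 (SE, adjusted p = 0.00272) for Col4a1 and 1.33 ± 0.14 (SE, adjusted p = 0.000799) for Col4a2. After LPS neither passed the threshold, at 0.44 ± 0.27 (SE, adjusted p = 0.207) and 0.44 ± 0.27 (SE, adjusted p = 0.217), with libraries that overlapped saline. The Col4a1 to Col4a2 ratio of FPKM was 1.19 ± 0.085 in saline, 1.19 ± 0.059 after LPS and 1.15 ± 0.085 at 2 weeks (SD, n = 3 in each).

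All 4 genes of the other pairs were lower after LPS, and of these Col4a5 alone passed the threshold at 2 weeks. Each was under 1 FPKM in some LPS libraries, so saline carried it past the filter. Col4a3 stood at 3.52, 5.84 and 10.2 FPKM in saline, 4.20, 0.392 and 1.70 FPKM after LPS, 2.88, 4.86 and 5.20 FPKM at 2 weeks and 5.55 and 5.95 FPKM at 4 weeks. Col4a4 stood at 3.07, 5.28 and 7.49 FPKM in saline, 3.30, 0.874 and 1.61 FPKM after LPS, 3.18, 4.44 and 4.94 FPKM at 2 weeks and 6.11 and 5.38 FPKM at 4 weeks. Both showed a wide spread already in saline, and their libraries overlapped saline in every group. The log2 fold change of Col4a3 was -1.38 ± 0.47 (SE, adjusted p = 0.0444) after LPS and -0.43 ± 0.33 (SE, adjusted p = 0.367) at 2 weeks, and that of Col4a4 was -1.12 ± 0.35 (SE, adjusted p = 0.0312) and -0.23 ± 0.27 (SE, adjusted p = 0.557). Both LPS calls were lost under 7 or 8 of the alternatives, among them median-ratio scaling and leaving out LPS library 2 or 3.

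Col4a5 and Col4a6 parted at 2 weeks. Col4a5 stood at 11.2, 12.8 and 15.4 FPKM in saline, 5.98, 0.814 and 2.14 FPKM after LPS, 21.3, 23.3 and 23.3 FPKM at 2 weeks and 24.7 and 23.2 FPKM at 4 weeks. Col4a6 stood at 3.78, 4.64 and 5.13 FPKM in saline, 1.62, 0.638 and 0.700 FPKM after LPS, 4.54, 4.31 and 4.70 FPKM at 2 weeks and 4.71 and 4.41 FPKM at 4 weeks. All LPS libraries lay below all saline libraries for both, with log2 fold changes of -2.04 ± 0.42 (SE, adjusted p = 0.00592) and -1.50 ± 0.22 (SE, adjusted p = 0.00112). At 2 weeks every library of Col4a5 lay above saline, at 0.75 ± 0.12 (SE, adjusted p = 0.00370), while Col4a6 overlapped saline, at 0.0058 ± 0.11 (SE, adjusted p = 0.975). The call of Col4a5 was lost in 1 fit of the 11 libraries other than 4-week library 2 (adjusted p = 0.205). At 4 weeks Col4a5 was again above saline in both libraries, at 0.83 ± 0.15 (SE, adjusted p = 0.0570), which missed the threshold. The Col4a5 to Col4a6 ratio of FPKM was 2.90 ± 0.12 in saline and 5.02 ± 0.37 at 2 weeks (SD, n = 3 in each; exact permutation p = 0.1, two-sided, the smallest that 3 against 3 allows), and 5.23 and 5.25 in the 4-week libraries.

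**Figure D3:**
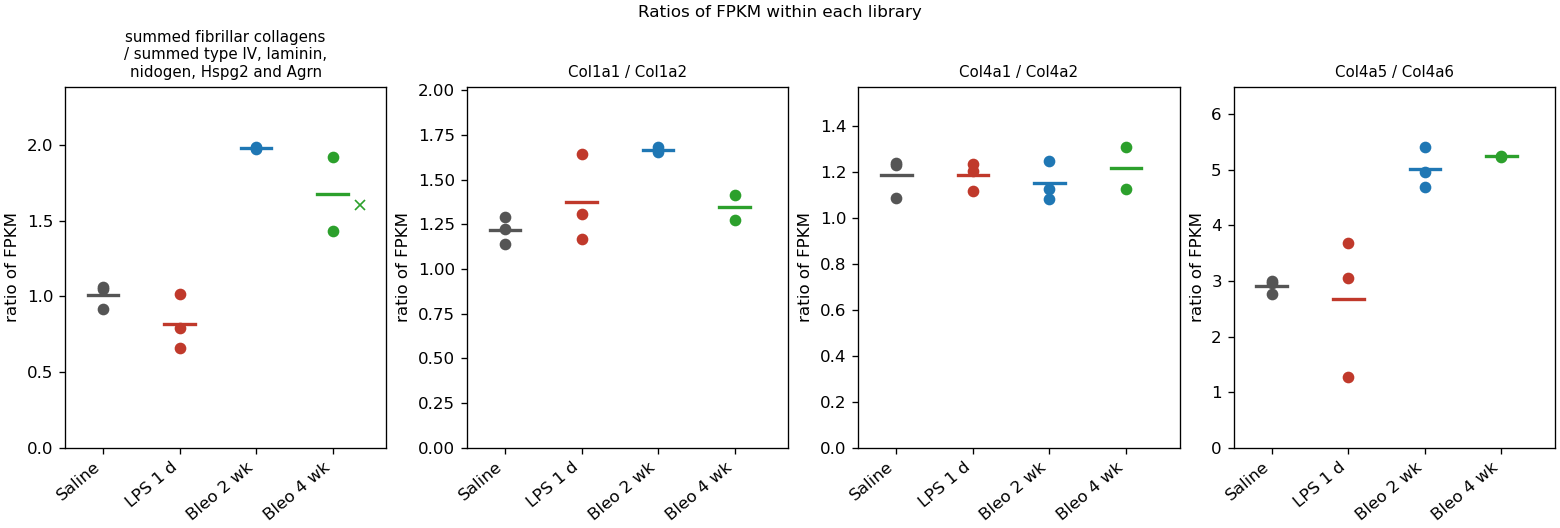
Ratios of FPKM within each library (points) with the group mean (bars): summed fibrillar collagens to summed type IV collagens, laminins, nidogens, Hspg2 and Agrn, and the ratios of 3 gene pairs. The cross is 4-week library 2 and is drawn in the first panel only, since its other ratios lie off the axis or cannot be formed. The 2-week points of the first panel lie at 1.98 to 1.99 and those of saline at 0.916 to 1.06.

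Laminins are cross-shaped proteins of an alpha, a beta and a gamma chain, and the chain mix differs between cell types. Of the 10 laminin genes tested after LPS 8 were lower, with a median log2 fold change of -1.26, and of the 11 tested at 2 weeks 5 were higher, with a median of 0.39. Without Lama1, tested through the 2-week libraries alone, it was 4 of 10, with a median of 0.30. The count at 2 weeks was 3 of 11 with median-ratio scaling, with quantile normalization, without saline library 2 and by the authors' q-values. In 1 fit of the 11 libraries other than 4-week library 2 it was 0 of 10 by limma, with 3 at an unadjusted p under 0.05. After LPS it was 3 of 10 by the authors' q-values. Lama3 and Lamc3 were under 1 FPKM in some LPS libraries, so saline carried them past the filter. Lama3 and Lamb3 encode chains of the laminin that anchors epithelium through hemidesmosomes. Lama3 stood at 2.30, 3.77 and 5.35 FPKM in saline, 1.22, 0.237 and 0.445 FPKM after LPS, 2.85, 3.78 and 4.34 FPKM at 2 weeks and 4.16 and 4.86 FPKM at 4 weeks. Lamb3 stood at 11.0, 14.1 and 14.6 FPKM in saline, 8.12, 8.65 and 4.83 FPKM after LPS, 9.37, 10.7 and 11.5 FPKM at 2 weeks and 11.7 and 12.8 FPKM at 4 weeks. After LPS the log2 fold change was -1.55 ± 0.28 (SE, adjusted p = 0.00354) for Lama3 and -0.82 ± 0.23 (SE, adjusted p = 0.0222) for Lamb3, with every LPS library below every saline library for both. At 2 weeks neither passed the threshold, with -0.0085 ± 0.24 (SE, adjusted p = 0.981) and -0.30 ± 0.13 (SE, adjusted p = 0.123) in that order.

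Lama5, Lamb1, Lamb2 and Lamc1 encode chains of the laminins that lie under alveolar epithelium and endothelium. Lama5, the main alpha chain of adult alveolar basement membrane, stood at 9.59, 9.39 and 10.8 FPKM in saline, 11.4, 8.46 and 7.01 FPKM after LPS, 14.5, 13.1 and 12.5 FPKM at 2 weeks and 7.49 and 9.83 FPKM at 4 weeks. It was the only alpha chain tested after LPS whose libraries overlapped saline, at -0.15 ± 0.20 (SE, adjusted p = 0.554). Lamc1, the common gamma chain, stood at 37.5, 37.3 and 47.0 FPKM in saline, 28.7, 12.2 and 11.6 FPKM after LPS, 69.2, 61.5 and 70.3 FPKM at 2 weeks and 38.5 and 55.1 FPKM at 4 weeks. Lamb2 stood at 42.4, 41.4 and 47.3 FPKM in saline, 24.6, 20.6 and 13.7 FPKM after LPS, 54.1, 43.9 and 52.6 FPKM at 2 weeks and 45.7 and 50.9 FPKM at 4 weeks. Every LPS library lay below every saline library for Lamc1 and Lamb2, with log2 fold changes of -1.28 ± 0.31 (SE, adjusted p = 0.0127) and -1.15 ± 0.22 (SE, adjusted p = 0.00413). At 2 weeks Lamc1 rose by 0.71 ± 0.11 (SE, adjusted p = 0.00365) and Lama5 by 0.39 ± 0.092 (SE, adjusted p = 0.0188), while Lamb2 was at 0.19 ± 0.10 (SE, adjusted p = 0.204). The call of Lama5 was lost under 5 alternatives, and that of Lamc1 in the fit of all 11 libraries (adjusted p = 0.125).

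Lama2 and Lama4 encode alpha chains known from muscle and from vessels. Lama2 stood at 11.0, 10.8 and 12.2 FPKM in saline, 4.28, 1.85 and 1.26 FPKM after LPS, 17.5, 15.6 and 18.3 FPKM at 2 weeks and 12.3 and 17.9 FPKM at 4 weeks, and Lama4 at 19.6, 19.9 and 23.1 FPKM in saline, 11.5, 7.81 and 6.02 FPKM after LPS, 22.8, 20.8 and 25.1 FPKM at 2 weeks and 15.7 and 21.7 FPKM at 4 weeks. Both fell after LPS with no overlap, with log2 fold changes of -1.93 ± 0.29 (SE, adjusted p = 0.00143) and -1.25 ± 0.22 (SE, adjusted p = 0.00316), and at 2 weeks Lama2 rose by 0.56 ± 0.091 (SE, adjusted p = 0.00451) while Lama4 was at 0.13 ± 0.10 (SE, adjusted p = 0.379). Lamb1, a widely expressed beta chain, stood at 31.0, 32.2 and 36.4 FPKM in saline, 18.2, 11.8 and 7.68 FPKM after LPS, 47.9, 40.3 and 48.2 FPKM at 2 weeks and 27.1 and 37.7 FPKM at 4 weeks. It was lower after LPS, at -1.41 ± 0.27 (SE, adjusted p = 0.00422), and was higher at 2 weeks by 0.44 ± 0.10 (SE, adjusted p = 0.0178), a call that 6 of the alternatives removed; that of Lama2 was lost in the fit of the 11 libraries (adjusted p = 0.202). Lamc3, a minor gamma chain, stood at 9.41, 8.62 and 8.73 FPKM in saline, 3.88, 1.53 and 0.732 FPKM after LPS, 13.3, 8.46 and 10.0 FPKM at 2 weeks and 11.7 and 16.2 FPKM at 4 weeks, with a log2 fold change of -1.84 ± 0.33 (SE, adjusted p = 0.00336) after LPS. Lama1, the alpha chain of embryonic basement membranes, was between 0.0644 and 0.206 FPKM in saline and at 2.74, 1.73 and 1.77 FPKM at 2 weeks, a log2 fold change of 1.43 ± 0.14 (SE, adjusted p = 0.000548). At 4 weeks none of the 10 laminin genes tested passed the threshold by limma, and 1, Lamc3, was under an unadjusted p of 0.05.

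**Figure D4:**
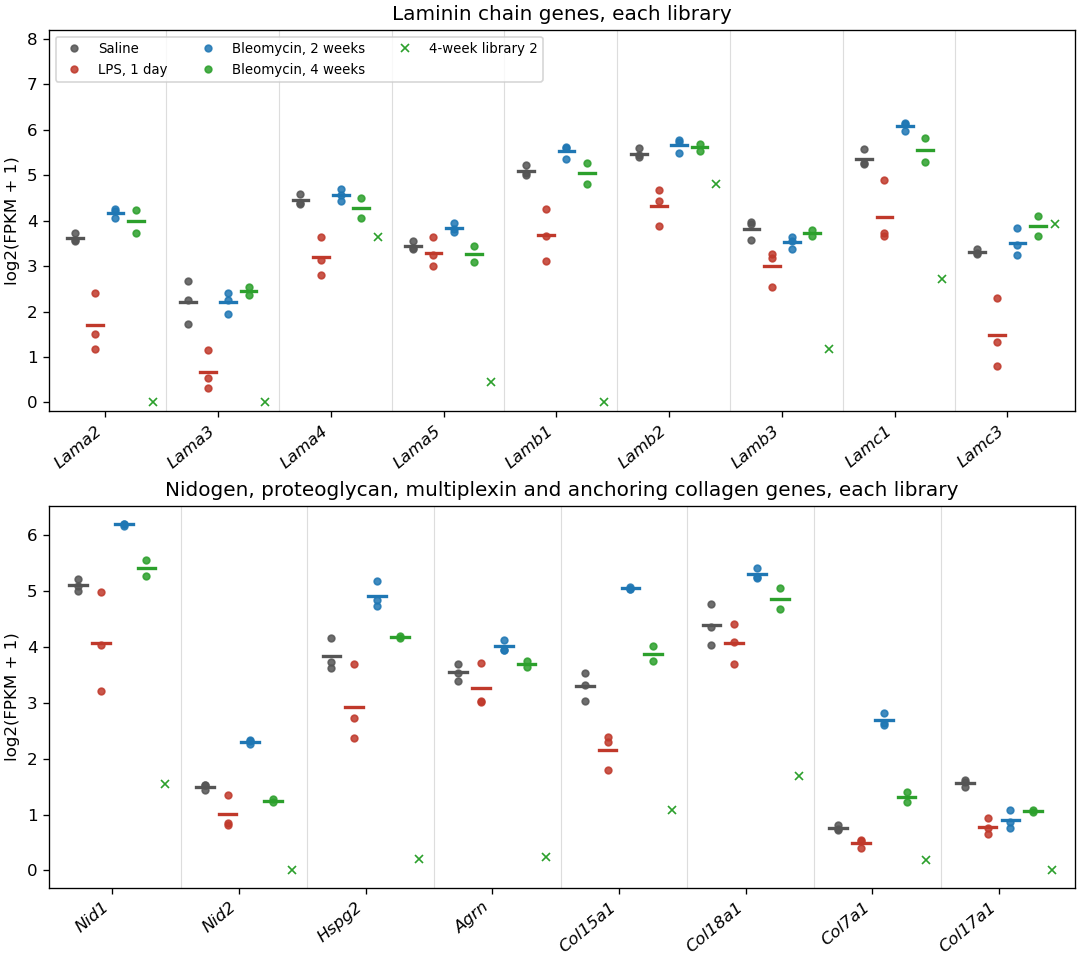
Log2(FPKM + 1) in each library (points) with the group mean (bars) for 9 laminin genes and for 8 genes of nidogens, proteoglycans, multiplexins and anchoring collagens; crosses are 4-week library 2, which is not in the mean. LPS points lie below all saline points for 8 of these 9 laminins, all but Lama5. Among the other 8 genes the 2-week points stand above those of all other groups for all but Col17a1.

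Among the linkers of the basement membrane all 4 of Nid1, Nid2, Hspg2 and Agrn were higher at 2 weeks. Agrn lost its call in the fit of all 11 libraries (adjusted p = 0.133) and by the q-value of the authors' deposited table (0.0612). Nid1, which ties laminin to type IV collagen, stood at 33.0, 31.1 and 36.2 FPKM in saline, 30.5, 8.29 and 15.5 FPKM after LPS, 71.0, 73.0 and 72.7 FPKM at 2 weeks and 37.5 and 46.1 FPKM at 4 weeks. Nid2, its paralog, stood at 1.90, 1.88 and 1.72 FPKM in saline, 1.55, 0.791 and 0.766 FPKM after LPS, 3.78, 4.02 and 3.99 FPKM at 2 weeks and 1.43 and 1.33 FPKM at 4 weeks. The log2 fold changes at 2 weeks were 1.09 ± 0.079 (SE, adjusted p = 0.000217) and 0.80 ± 0.083 (SE, adjusted p = 0.000674). The nidogens then parted: at 4 weeks both libraries of Nid1 were above saline, at 0.31 ± 0.14 (SE, adjusted p = 0.261), and both of Nid2 below it, at -0.25 ± 0.12 (SE, adjusted p = 0.269), and neither passed the threshold. Hspg2, which encodes the heparan sulfate proteoglycan perlecan, stood at 11.3, 12.3 and 16.9 FPKM in saline, 12.0, 5.60 and 4.20 FPKM after LPS, 35.4, 25.6 and 27.7 FPKM at 2 weeks and 17.3 and 17.0 FPKM at 4 weeks. Agrn, which encodes agrin, stood at 9.53, 10.6 and 12.0 FPKM in saline, 12.2, 7.20 and 7.10 FPKM after LPS, 16.6, 14.4 and 14.5 FPKM at 2 weeks and 11.5 and 12.4 FPKM at 4 weeks. Their log2 fold changes at 2 weeks were 1.08 ± 0.17 (SE, adjusted p = 0.00387) and 0.47 ± 0.11 (SE, adjusted p = 0.0159). After LPS Nid2 was at -0.50 ± 0.18 (SE, adjusted p = 0.0499), a call that 11 alternatives removed, and Nid1, Hspg2 and Agrn missed the threshold at -1.03 ± 0.37 (SE, adjusted p = 0.0544), -0.90 ± 0.32 (SE, adjusted p = 0.0520) and -0.29 ± 0.22 (SE, adjusted p = 0.322).

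Col15a1 and Col18a1 encode multiplexins, collagens bearing glycosaminoglycan chains at the outer face of basement membranes, and both were higher at 2 weeks. Col15a1 stood at 7.21, 9.03 and 10.5 FPKM in saline, 4.26, 3.94 and 2.46 FPKM after LPS, 31.9, 32.8 and 31.9 FPKM at 2 weeks and 15.2 and 12.4 FPKM at 4 weeks, with a log2 fold change of 1.76 ± 0.13 (SE, adjusted p = 0.000216) at 2 weeks and -1.13 ± 0.22 (SE, adjusted p = 0.00483) after LPS. Col18a1, the source of endostatin, stood at 15.5, 19.5 and 26.1 FPKM in saline, 20.4, 16.1 and 12.0 FPKM after LPS, 41.8, 36.5 and 37.3 FPKM at 2 weeks and 32.2 and 24.6 FPKM at 4 weeks, with 0.92 ± 0.17 (SE, adjusted p = 0.00807) at 2 weeks and -0.31 ± 0.24 (SE, adjusted p = 0.323) after LPS.

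The collagens that fasten epithelium to its basement membrane went opposite ways at 2 weeks. Col7a1, the anchoring fibril collagen, stood at 0.755, 0.679 and 0.655 FPKM in saline, 0.447, 0.451 and 0.316 FPKM after LPS, 5.10, 6.02 and 5.26 FPKM at 2 weeks and 1.65 and 1.34 FPKM at 4 weeks. Col17a1, a transmembrane collagen of hemidesmosomes, stood at 2.01, 2.06 and 1.82 FPKM in saline, 0.919, 0.563 and 0.689 FPKM after LPS, 1.12, 0.687 and 0.826 FPKM at 2 weeks and 1.07 and 1.12 FPKM at 4 weeks. The 2-week libraries lay above all others for Col7a1 and below all saline libraries for Col17a1, and the LPS libraries of Col17a1 were also below saline. The log2 fold change at 2 weeks was 1.93 ± 0.093 (SE, adjusted p = 5.41e-05) for Col7a1 and -0.66 ± 0.11 (SE, adjusted p = 0.00464) for Col17a1, and the LPS value of Col17a1 was -0.79 ± 0.14 (SE, adjusted p = 0.00340). At 4 weeks the values were 0.55 ± 0.12 (SE, adjusted p = 0.0810) and -0.50 ± 0.12 (SE, adjusted p = 0.0890). These levels are near 1 FPKM, where the scale understates a change. At 2 weeks each gene was carried past the filter by the group where it is high, Col7a1 by the 2-week libraries and Col17a1 by saline.

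Collagen VI, a beaded filament between basement membrane and interstitium, was abundant, and its 3 genes moved the same way in each comparison. Col6a2 (chr10:76595762-76623630) and Col6a1 (chr10:76708792-76726168) lie on the minus strand of the same region. Col6a1 stood at 145, 166 and 187 FPKM in saline, 121, 82.1 and 60.1 FPKM after LPS, 325, 269 and 316 FPKM at 2 weeks and 235 and 226 FPKM at 4 weeks. Col6a2 stood at 58.8, 68.6 and 77.1 FPKM in saline, 41.8, 30.1 and 20.3 FPKM after LPS, 157, 130.0 and 148 FPKM at 2 weeks and 96.6 and 86.8 FPKM at 4 weeks. Col6a3 stood at 34.1, 33.1 and 41.9 FPKM in saline, 20.6, 10.7 and 8.53 FPKM after LPS, 100.02, 86.8 and 99.7 FPKM at 2 weeks and 61.2 and 61.6 FPKM at 4 weeks. All 3 rose at 2 weeks, by 0.87 ± 0.12, 1.08 ± 0.12 and 1.37 ± 0.11 (log2, SE), with adjusted p of 0.00236, 0.00091 and 0.000307, and all 3 fell after LPS, at -0.96 ± 0.26, -1.17 ± 0.25 and -1.47 ± 0.29, with adjusted p of 0.0184, 0.00751 and 0.00473. In each case no library overlapped saline. The Col6a1 to Col6a2 ratio of FPKM was 2.44 ± 0.022 in saline, 2.86 ± 0.12 after LPS and 2.09 ± 0.038 at 2 weeks, with no overlap between groups (SD, n = 3 in each; exact permutation p = 0.1 for both, the smallest possible). At 4 weeks all 3 were above saline in both libraries and none passed the threshold.

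The collagens that coat fibrils rose at 2 weeks too. Col12a1, Col14a1 and Col16a1 bind the surface of collagen fibres. Col12a1 stood at 2.72, 2.92 and 3.25 FPKM in saline, 1.45, 0.474 and 0.380 FPKM after LPS, 9.89, 15.9 and 11.9 FPKM at 2 weeks and 5.49 and 6.04 FPKM at 4 weeks. Col14a1 stood at 22.9, 25.5 and 26.6 FPKM in saline, 6.41, 3.15 and 1.87 FPKM after LPS, 44.4, 38.4 and 37.2 FPKM at 2 weeks and 38.0 and 36.2 FPKM at 4 weeks. Col16a1 stood at 13.5, 13.8 and 15.8 FPKM in saline, 7.09, 8.16 and 4.41 FPKM after LPS, 44.7, 42.4 and 43.8 FPKM at 2 weeks and 34.6 and 27.6 FPKM at 4 weeks. Each was above saline in every 2-week and 4-week library and below it in every LPS library. The log2 fold changes at 2 weeks were 1.76 ± 0.16 (SE, adjusted p = 0.000462), 0.65 ± 0.10 (SE, adjusted p = 0.00304) and 1.54 ± 0.083 (SE, adjusted p = 7.58e-05). The call of Col14a1 was lost in the fit of the 11 libraries (adjusted p = 0.134). After LPS Col14a1 was at -2.54 ± 0.31 (SE, adjusted p = 0.000496), the lowest log2 fold change among the members tested, and Col12a1 and Col16a1 were at -1.21 and -1.05, with adjusted p of 0.00371 and 0.00638. At 4 weeks Col12a1 and Col16a1 passed the threshold, at 0.77 ± 0.13 (SE, adjusted p = 0.0414) and 1.06 ± 0.14 (SE, adjusted p = 0.0254). Both calls were lost when any 1 saline library was left out. None of the 6 calls of members at 4 weeks held under every alternative.

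Among the remaining collagens, Col28a1 and Col8a1 stood out. Col28a1, a collagen with von Willebrand type A domains found in peripheral nerve, stood at 1.48, 1.95 and 2.93 FPKM in saline, 1.29, 0.787 and 0.232 FPKM after LPS, 17.3, 19.2 and 18.1 FPKM at 2 weeks and 23.1 and 15.0 FPKM at 4 weeks. Its log2 fold change was 2.65 ± 0.16 (SE, adjusted p = 0.000141) at 2 weeks and 2.68 ± 0.25 (SE, adjusted p = 0.00803) at 4 weeks, the highest among the members at either time. Col8a1, a short-chain collagen of vessels and the cornea, stood at 2.62, 2.68 and 3.31 FPKM in saline, 2.96, 1.61 and 2.02 FPKM after LPS, 11.7, 20.2 and 16.6 FPKM at 2 weeks and 7.28 and 6.36 FPKM at 4 weeks, with 2.12 ± 0.19 (SE, adjusted p = 0.000394) at 2 weeks and 1.02 ± 0.14 (SE, adjusted p = 0.0254) at 4 weeks. The 4-week call of Col8a1 was lost when any 1 saline library was left out. Col8a2, its partner chain, stood at 7.68, 7.74 and 8.51 FPKM in saline, 4.08, 2.97 and 3.66 FPKM after LPS, 6.13, 7.06 and 6.19 FPKM at 2 weeks and 8.25 and 7.93 FPKM at 4 weeks. It was lower after LPS, at -0.98 ± 0.17 (SE, adjusted p = 0.00305), and was at -0.27 ± 0.090 (SE, adjusted p = 0.0624) at 2 weeks. Col13a1, a transmembrane collagen of cell contacts, stood at 35.5, 39.1 and 39.4 FPKM in saline, 15.7, 11.6 and 12.3 FPKM after LPS, 41.2, 32.1 and 42.6 FPKM at 2 weeks and 42.4 and 50.6 FPKM at 4 weeks. It fell after LPS with no overlap, at -1.47 ± 0.17 (SE, adjusted p = 0.000372), and overlapped saline at 2 weeks. Col23a1, also a transmembrane collagen, stood at 19.8, 21.1 and 21.5 FPKM in saline, 22.9, 22.5 and 17.8 FPKM after LPS, 20.7, 16.6 and 18.5 FPKM at 2 weeks and 14.6 and 20.9 FPKM at 4 weeks, and passed no threshold.

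Set side by side, the fibrillar genes had the larger median change at 2 weeks and the basement membrane genes after LPS. At 2 weeks 8 of 8 fibrillar genes tested were higher with a median log2 fold change of 1.90, and of the 21 type IV, laminin, nidogen and proteoglycan genes 12 were higher with a median of 0.47. Without Col24a1 and Lama1, which were tested through the 2-week libraries alone, these were 7 of 7 with a median of 1.98 and 11 of 20 with a median of 0.45. In 1 fit of all 11 libraries, over genes in all tables, 7 of 7 fibrillar genes and 5 of 20 basement membrane genes were called higher, with Agrn, Col4a5, Lama2, Lama5, Lamb1 and Lamc1 losing their calls. After LPS 2 of 7 fibrillar genes were lower with a median of -0.70, and 13 of 20 basement membrane genes with a median of -1.14. The latter median was -1.25 over type IV, -1.26 over laminin and -0.70 over nidogen and proteoglycan genes. Saline carried some of these calls past the filter: Col27a1 among the fibrillar genes, and Col4a3, Col4a4, Col4a5, Col4a6, Lama3, Lamc3 and Nid2 among the others. At 4 weeks the median was 1.01 over 7 fibrillar genes and 0.16 over 20 basement membrane genes, of which none passed the threshold by limma and 4 were under an unadjusted p of 0.05. The split after LPS moved with scaling: with libraries scaled to equal totals 5 of 7 fibrillar and 15 of 20 basement membrane genes were lower, and with median-ratio scaling 1 and 9. Without LPS library 3 it was 1 and 8, without saline library 2 or 3 it was 1 and 9, without LPS library 1 it was 6 and 16, and by the authors' q-values 1 and 4. The medians kept their sign for both groups against saline under the 3 other scalings, and the fibrillar median at 2 weeks was 1.83 to 2.07 there.

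Summed over the genes in all tables, the fibrillar collagens stood at 400.5, 458 and 588 FPKM in saline, 449.9, 302 and 219 FPKM after LPS, 1915, 1624 and 1733 FPKM at 2 weeks and 1131 and 959 FPKM at 4 weeks. The basement membrane genes summed to 437, 431 and 562 FPKM in saline, 567.5, 298 and 335 FPKM after LPS, 967, 817 and 877 FPKM at 2 weeks and 589.8 and 670.0 FPKM at 4 weeks. Both sums were above saline in all 2-week and 4-week libraries. Their ratio, free of the library's scaling, was 1.01 ± 0.080 in saline, 0.821 ± 0.18 after LPS and 1.98 ± 0.0055 at 2 weeks (SD, n = 3 in each). An exact two-sided permutation test of the ratio against saline gave p = 0.2 after LPS and p = 0.1 at 2 weeks, the smallest that 3 against 3 allows. After LPS the mean ratio was not above that of saline, although the basement membrane genes had the larger median fall. The 4-week libraries were at 1.92 and 1.43, and library 2 was at 1.60. In the basement membrane sum the type IV genes, mostly Col4a1 and Col4a2, held 187 to 277 FPKM in saline. They held 195 to 385 FPKM after LPS and 465 to 575 FPKM at 2 weeks. The Col1a1 to Col1a2 ratio was 1.22 ± 0.076 in saline and 1.67 ± 0.015 at 2 weeks, with no overlap (SD, n = 3 in each; exact permutation p = 0.1), and 1.41 and 1.27 at 4 weeks.

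The treatments were compared directly in 1 fit of 11 libraries. At 2 weeks 39 of 42 members were higher than after LPS and none was lower (40 and 0 at an unadjusted p under 0.05), where 32.3% of all genes tested were higher, 12.4% lower and 44.7% in either direction. The exceptions were Col4a3 at 0.95 ± 0.42 (SE, adjusted p = 0.0837), Col17a1 at 0.12 ± 0.13 (SE, adjusted p = 0.445) and Col23a1 at -0.17 ± 0.16 (SE, adjusted p = 0.412). Col7a1, one of those called, reached 1 FPKM in the bleomycin libraries alone, so it could only have been called higher. All 7 fibrillar genes tested differed, with a median of 2.67 on the log2 scale, and 19 of the 20 basement membrane genes, with a median of 1.36. Col28a1 differed most, by 3.48 ± 0.24 (SE, adjusted p = 2.19e-06), followed by Col14a1 at 3.20 ± 0.26 (SE, adjusted p = 5.87e-06). Lamb3 and Lama5 differed least among the basement membrane genes called, by 0.52 ± 0.20 (SE, adjusted p = 0.0477) and 0.55 ± 0.17 (SE, adjusted p = 0.0259), and both calls were lost under several alternatives. Of the 39 calls 33 held under every alternative in which 4-week library 2 stayed out. With that library in the fit, where it widens the shared spread but leaves the fold changes as they are, 15 were called. With median-ratio scaling, which moves the median of all genes from 0.26 to -0.00015, 33 members were higher and 1 lower.

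Between 2 and 4 weeks 7 of 42 members fell and none rose (17 and 0 at an unadjusted p under 0.05), where 3.83% of all genes tested were lower, 1.06% higher and 4.9% in either direction. They were Col5a1 (-1.35 ± 0.28, log2 ± SE), Col5a3 (-1.25 ± 0.25), Col7a1 (-1.37 ± 0.13), Col8a1 (-1.11 ± 0.23), Col12a1 (-0.98 ± 0.25), Col15a1 (-1.17 ± 0.21) and Nid2 (-1.05 ± 0.17), with adjusted p between 0.000285 and 0.0441. Col7a1 was the single call that held under every alternative. With quantile normalization 1 member, Col8a2, was called higher (0.50, adjusted p = 0.0465). The others rest on few libraries: 1 member was called without 4-week library 1, 2 without the unnumbered library, 5, 3 and 4 without 2-week library 1, 2 and 3, and 1 with 4-week library 2 added. Col28a1, at 0.038 ± 0.27, and Col4a5, at 0.076 ± 0.40, did not pass the threshold, with 4-week values close to or above those at 2 weeks.

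Library 2 of the 4-week group is described by its values alone, with no test. Among the fibrillar genes it held, beside those above, Col5a1 at 3.63 FPKM, Col5a3 at 2.81 FPKM and Col27a1 at 4.00 FPKM. Of the type IV chains Col4a1 was at 84.4, Col4a2 at 10.3, Col4a3 at 2.50, Col4a4 at 1.58 and Col4a5 at 0.245 FPKM, with Col4a6 at 0, so Col4a2 was low against its partner. Of the laminins Lamc3 was at 14.3, Lamb2 at 26.9, Lamb3 at 1.26 and Lama4 at 11.5 FPKM, and Lama2, Lama3, Lama5, Lamb1 and Lamc1 at 0, 0, 0.357, 0 and 5.54 FPKM. Nid1, Nid2, Hspg2 and Agrn were at 1.92, 0, 0.154 and 0.178 FPKM, Col15a1 and Col18a1 at 1.11 and 2.23 FPKM, and Col7a1 and Col17a1 at 0.140 and 0 FPKM. Col6a1, Col6a2 and Col6a3 were at 32.7, 36.6 and 9.85 FPKM, and Col12a1, Col14a1, Col16a1 and Col20a1 at 0, 0, 2.52 and 0 FPKM. Col8a1, Col8a2, Col13a1, Col23a1 and Col28a1 were at 1.79, 0, 1.76, 39.1 and 0 FPKM. Over the 42 members tested at 4 weeks its median difference from the saline mean was -2.17 on the log2 scale, against -1.64 over all genes, while those of the other 4-week libraries were 0.43 and 0.45.

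The machinery that makes collagen was read from 29 genes of prolyl and lysyl hydroxylases, chaperones, procollagen proteases and crosslinking oxidases. The shares of all genes called, against which this and the following lists can be read, were 29.8% at 2 weeks, 40.2% after LPS and 1.63% at 4 weeks. At 2 weeks 19 were higher and 2 lower, with a median log2 fold change of 0.66. P4ha3, a prolyl hydroxylase subunit, stood at 1.24, 1.24 and 1.54 FPKM in saline, 2.14, 1.70 and 0.971 FPKM after LPS, 9.80, 14.5 and 10.9 FPKM at 2 weeks and 5.88 and 5.47 FPKM at 4 weeks, a rise of 2.43 ± 0.15 (SE, adjusted p = 0.000115) at 2 weeks. Loxl2, a lysyl oxidase that crosslinks type IV collagen, stood at 9.48, 10.5 and 11.7 FPKM in saline, 12.2, 6.41 and 6.75 FPKM after LPS, 33.6, 43.4 and 41.8 FPKM at 2 weeks and 25.2 and 18.5 FPKM at 4 weeks, a rise of 1.81 ± 0.12 (SE, adjusted p = 0.000187). Fkbp10, a collagen chaperone, rose by 1.48 ± 0.10 (SE, adjusted p = 0.000185). After LPS 2 of the 29 were higher and 7 lower, with a median of -0.23, and at 4 weeks 2 were higher, P4ha3 by 1.52 ± 0.13 (SE, adjusted p = 0.00614) and P3h3 by 0.80 ± 0.12 (SE, adjusted p = 0.0297). Of 16 genes of integrin subunits and other receptors for basement membrane 4 were higher and 1 lower at 2 weeks and 1 higher and 6 lower after LPS, shares near those of all genes. Ddr2, a receptor for fibrillar collagen, went from 19.9, 22.6 and 22.8 FPKM in saline to 30.0, 29.2 and 31.9 FPKM at 2 weeks and 12.8, 5.90 and 6.21 FPKM after LPS, with log2 fold changes of 0.47 ± 0.084 (SE, adjusted p = 0.00668) and -1.37 ± 0.26 (SE, adjusted p = 0.00458). Of 13 other basement membrane components 5 were higher and 3 lower at 2 weeks, and 1 was higher and 9 lower after LPS. Tinag, a tubulointerstitial nephritis antigen that binds laminin and type IV collagen, fell in both, at -1.67 ± 0.17 (SE, adjusted p = 0.000695) and -2.78 ± 0.22 (SE, adjusted p = 5.25e-05), while Fbln2, a fibulin, rose by 1.25 ± 0.15 (SE, adjusted p = 0.00111) at 2 weeks.

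Markers of the cells that the depletion was meant to remove were read beside these genes, and they did not all go the same way. Of 16 fibroblast markers 7 were higher and 3 lower at 2 weeks, 1 was higher and 13 lower after LPS, and 3 were higher at 4 weeks. None was listed at 0 in the 11 libraries. Their summed level was 2559 to 2891 FPKM in saline, 769 to 1021 FPKM after LPS, 1584 to 1956 FPKM at 2 weeks and 2782 to 2784 FPKM at 4 weeks. At 2 weeks the sum was below saline, and Inmt made up much of it, at 1311 to 1575 FPKM in saline and 253 to 444 FPKM at 2 weeks. Without Inmt, a sum chosen after seeing the data, the other 15 markers were at 1142 to 1316 FPKM in saline, 507 to 793 FPKM after LPS, 1330.3 to 1533 FPKM at 2 weeks and 1764 to 1801 FPKM at 4 weeks, so the 2-week libraries were above saline. Pdgfra was at 51.0, 50.9 and 47.6 FPKM in saline and 47.3, 42.1 and 48.3 FPKM at 2 weeks, a log2 fold change of -0.12 ± 0.081 (SE, adjusted p = 0.317). Inmt and Wnt2, markers of resting alveolar fibroblasts, were at -2.02 ± 0.21 (SE, adjusted p = 0.000646) and -0.55 ± 0.069 (SE, adjusted p = 0.00141). Cthrc1, a marker of collagen-rich fibroblasts in injured lung, stood at 3.76, 2.82 and 3.39 FPKM in saline, 0.847, 0.480 and 0.810 FPKM after LPS, 16.6, 33.0 and 25.7 FPKM at 2 weeks and 8.99 and 7.11 FPKM at 4 weeks, with 2.55 ± 0.23 (SE, adjusted p = 0.000429) at 2 weeks. Pdgfrb, a receptor of fibroblasts and pericytes, rose by 0.76 ± 0.070 (SE, adjusted p = 0.000462) and Lum, a proteoglycan of collagen fibres, by 1.31 ± 0.13 (SE, adjusted p = 0.000641). The part of these cells in the results was not tested.

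Of 10 smooth muscle and pericyte markers 2, Cspg4 and Des, were higher at 2 weeks and 5 lower after LPS, with sums of 627 to 1283 FPKM in saline, 501 to 652 FPKM after LPS and 958 to 1005 FPKM at 2 weeks. Of 12 endothelial markers Kdr was lower at 2 weeks and Kdr, Tek and Tie1 after LPS, with sums of 699 to 1098 FPKM in saline, 695 to 779 FPKM after LPS and 521 to 852 FPKM at 2 weeks. All 5 mesothelial markers tested were at a median log2 fold change of -1.65 after LPS, 4 of them called lower, with sums of 19.9 to 33.8 FPKM against 65.1 to 107.6 FPKM in saline. Neutrophil markers were at 225 to 603 FPKM in saline and 2686 to 7637 FPKM after LPS, with 7 of 8 called higher. Of 9 macrophage and monocyte markers 7 were higher after LPS, and 6 were higher and 1 lower at 2 weeks. Krt5, a basal cell keratin, was higher at 2 weeks by 1.27 ± 0.29 (SE, adjusted p = 0.0171) and at 4 weeks by 2.21 ± 0.24 (SE, adjusted p = 0.0128); it was at 0.160 to 0.372 FPKM in saline and was tested through the treated libraries alone, so it could only have been called higher. Of the epithelial lists, type 1 alveolar markers had 6 of 12 lower and 1 higher both after LPS and at 2 weeks. Of 9 club and ciliated cell markers 7 were lower both after LPS and at 2 weeks. Scgb1a1, a club cell marker, was at 10682, 14835 and 11399 FPKM in saline, where Sftpc was at 10854, 14144 and 11008 FPKM. Type 2 alveolar markers had 9 of 12 lower and 1 higher after LPS and 10 of 12 lower at 2 weeks. The part of these shifts in the results was not tested.

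Transcript length moved with the LPS result. By the longest transcript in the GENCODE annotation of the same build, available for 99.9% of the genes tested, all but 1 of the 41 members tested were of 4000 bases or more. Among all genes the median log2 fold change after LPS went from 0.18 under 2000 bases to -0.38 at 4000 to under 6000 bases, -0.48 at 6000 to under 8000 bases and -0.54 at 8000 bases or more, and the share called lower from 16.2% to 31.5%, 38.0% and 40.7%. In the same 3 upper classes 13 of 19, 6 of 11 and 6 of 10 members were lower, with medians of -0.84, -1.03 and -1.17. The median fell with length in all 3 LPS libraries, from 0.066 under 2000 bases to -0.16 at 8000 bases or more in LPS library 1, from 0.33 to -0.77 in library 2 and from 0.17 to -0.64 in library 3. LPS library 1 was also nearest to saline over the 41 members, with a median difference from the saline mean of -0.48 and 31 of 41 below it, against -0.99 and -1.31 in libraries 2 and 3 with 39 of 41 below in each. At 2 weeks the medians of all genes lay between -0.012 and 0.071 over the length classes. The share called lower fell from 16.7% under 2000 bases to 8.04% at 8000 bases or more, and the share called higher lay between 14.4% and 19.4%. At 4 weeks the median was 0.00031 under 2000 bases and between -0.14 and -0.12 in the longer classes. The part of length in the LPS result was not tested.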

How the data were processed

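RNA of bead-enriched alveolar epithelial cells was measured in 12 libraries of 4 groups. The authors deposited 3 tables, each with FPKM per library for 1 treatment and for saline; the saline values are identical in the 3 tables, so comparisons with saline share their control samples. Per the file headers the tables also hold group means, log2 fold changes, their linear fold ratio, and a p-value and q-value for each gene; by the values, the deposited group means and log2 fold changes are of log2(FPKM + 1). HISAT2, StringTie and mm10 are named, without versions, per the submitters' processing notes. The depth of the libraries is unknown, and whether genes were counted by strand is not stated in the sources used. The higher of a gene's 2 linear group means was never under 0.500175 FPKM in any table, so genes low in both groups are not listed.

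From the FPKM, log2(FPKM + 1) was compared with limma 3.58.1 in R 4.3.3 (trend option, two-sided), Benjamini-Hochberg adjusted over all genes tested, threshold 0.05. Genes had at least 1 FPKM in 3 libraries, or in 2 where a group had 2 libraries. A fold change on this scale understates the change of low genes. Each comparison with saline was fitted within its table, at 4 weeks without library 2. The direct comparisons came from 1 fit of 11 libraries over genes in all tables. The steps were tested on simulated data. Ratios of FPKM were compared by exact permutation tests.

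The members, gene lists and rules were chosen with earlier results of these data known. Values per library are given for members at 5 FPKM or more in any group or past the threshold, apart from 1 member that is counted but not reported here by itself. From each other list at most the 3 genes with the smallest adjusted p in a comparison and at least 5 FPKM are named. Of some marker lists, not all, genes among the first 2 are named as well. Thy1 and Epcam, targets of the bead steps, were added after their values were seen. Alternatives were another pseudocount (0.1), no filter, at least 5 FPKM, 3 other scalings, leaving out each library, a replicate block, a joint fit, 4-week library 2 added, and the authors' q-values. Chosen after seeing the data were a fibroblast sum without Inmt and class counts without genes that reached 1 FPKM in only 1 of the groups compared. These counts keep genes that reached it in some libraries of the other group.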

Additional observations from a re-analysis of the deposited data

Results flagged for a closer look

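Between 4 and 2 weeks after bleomycin the effect against saline differed for 7 members, by limma's test of the difference itself in the fit of 11 libraries. The 4-week effect minus the 2-week effect was -0.98 for Col12a1 (adjusted p = 0.0441), -1.17 for Col15a1 (adjusted p = 0.00894), -1.35 for Col5a1 (adjusted p = 0.0184) and -1.25 for Col5a3 (adjusted p = 0.0174), all on the log2 scale. It was -1.37 for Col7a1 (adjusted p = 0.000285), -1.11 for Col8a1 (adjusted p = 0.0201) and -1.05 for Nid2 (adjusted p = 0.00562). Both 4-week libraries were below all 3 2-week libraries for each of the 7 genes, which were picked by that test. Col7a1 alone kept its call under every alternative. With 4-week library 2 added the other 6 lost theirs.

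In 4-week library 2, which the tests leave out, 4 of the members reported stood above the highest saline library although most members were far below it. They were Col1a1 at 202 FPKM (highest saline library 181 FPKM), Col23a1 at 39.1 FPKM (21.5 FPKM), Col27a1 at 4.00 FPKM (2.63 FPKM) and Lamc3 at 14.3 FPKM (9.41 FPKM).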

How the results depend on the processing

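Of the 110 calls of members 50 held under every alternative, and of the 1563 values under alternatives 6 had the opposite sign, all at 4 weeks: with library 2 added, and in the authors' deposited table, Col12a1 was at -0.15, Col3a1 at -0.92 and Col5a2 at -0.25. By their values the deposited 4-week fold changes include library 2, so both settings hold the same fold changes. Why library 2 differs was not tested. After LPS the count of genes called was 5002, against 3272 at 5 FPKM or more and 2857 by the authors' q-values, and 2959 to 6906 without 1 library; members were 26, against 17, 11 and 18 to 34 in the same order. The 34 came without LPS library 1 and the 18 without LPS library 3, and the genes called were 2963 and 2959 when saline library 2 or 3 was left out and 3183 when LPS library 3 was. At 2 weeks 3786 genes were called, 1780 in the joint fit and 2477 to 3608 without 1 library; members were 32, 23 in the joint fit, where 7 calls were lost and 2 genes are not in all tables, and 31 to 34 without 1 library. The 2477 came without 2-week library 3. At 4 weeks 206 genes were called, 0 with library 2 (302 at an unadjusted p under 0.05 by limma), 1 by the authors' q-values and 3 to 827 without 1 library. Members there were 6, 3 in the joint fit, 0 with library 2, 0 by the authors' q-values and 0 to 8 without 1 library: 2, 1 and 3 without saline library 1, 2 or 3, 0 without 4-week library 1 and 8 without the unnumbered one. The lone 4-week library is then assumed to vary like the other group. At 2 weeks against LPS 5805 genes were called and 484 with library 2; members were 39 and 15, and 34 to 40 without 1 library. Between 4 and 2 weeks 636 genes were called, 1132 with equal totals, 67 with library 2 and 98 to 399 without 1 library; members were 7, 1 with library 2 and 1 to 5 without 1 library: 5, 3 and 4 without 2-week library 1, 2 or 3, 1 without 4-week library 1 and 2 without the unnumbered one.

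Scaling moved the split of calls. After LPS 1770 genes were higher and 3232 lower, 1225 and 3669 with equal totals and 2530 and 2109 with median-ratio scaling. At 2 weeks 2290 and 1496 became 3645 and 922 with equal totals, 1999 and 1995 with median-ratio scaling and 1946 and 2013 with quantile normalization. At 2 weeks against LPS 4198 and 1607 became 6676 and 861, 2326 and 2809, and 2366 and 2101 in that order. At 4 weeks 125 and 81 became 168 and 60 with median-ratio scaling. Between 4 and 2 weeks 138 and 498 became 75 and 1057, 207 and 285, and 285 and 402. The median of all genes moved from -0.22 to -0.37 after LPS, from 0.05 to 0.18 at 2 weeks, from 0.26 to 0.52 at 2 weeks against LPS and from -0.16 to -0.35 between 4 and 2 weeks, each with equal totals; with median-ratio scaling it lay between -0.0083 and 0.0024. Relative to these shifts the medians of all members tested stayed on the same side of the median of all genes under the 3 scalings.

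The labels do not say whether a shared replicate number pairs libraries. Same-numbered libraries of saline and LPS deviated from their group means with correlations of -0.088 to 0.031, and those of saline and 2 weeks with -0.091 to 0.11. Libraries of unlike number ranged from -0.26 to 0.26 between saline and 2 weeks, so these values cannot settle pairing. With the replicate block 4885 genes and 29 members were called after LPS, 3310 and 33 at 2 weeks, and 3621 and 36 at 2 weeks against LPS. No paired analysis was possible for the 4-week comparisons because 1 of the 2 libraries used carries no number from the labels. Read depth is unknown, so no counting error can be given, and values near 1 FPKM are the least precise.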
